A study of Mus musculus with 6 samples.

Results

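The genes of the matrix-degrading proteases and of their dedicated inhibitors were examined in a cell model of myotonic dystrophy type 1 (DM1). The members were all genes whose name starts with *Mmp*, *Adamts* or *Timp* followed directly by a digit, which gave 46 of the 55421 genes in the count table: 23 *Mmp*, 19 *Adamts* and 4 *Timp* genes. The ADAMTS-like genes, which lack a protease domain, were left out of the members and are given among the related genes. The cells were C2C12, an established mouse myoblast line that fuses into myotubes in low serum, here horse serum with insulin. Both groups carried a stably transfected plasmid under G418 selection in which GFP is followed by CTG repeats: 5 repeats in the normal group (CUG5) and 200 repeats in the DM1 group (CUG200). RNA was extracted on day 4 of differentiation and gave 3 libraries in each group. The repeat is read from a plasmid in addition to the cells' own genes, both lines went through transfection and drug selection, and the sources used here do not say whether each line is 1 clone. They also do not say whether the 3 libraries of a group came from separate transfections, so the p-values measure the spread between these libraries.

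Matrix metalloproteinases (MMPs) are zinc proteases, secreted or bound to the membrane, that are made as inactive precursors and cleave collagens, proteoglycans and other matrix proteins. ADAMTS proteases are secreted relatives with thrombospondin repeats, and their members trim procollagens, cleave large proteoglycans or act on microfibrils. The tissue inhibitors of metalloproteinases (TIMPs) bind the active site of these enzymes, and in muscle the balance between proteases and TIMPs is known to shape the matrix around fibers, myoblast migration and fusion.

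The count table held between 61707889 and 80957325 counts per library. Each count was worth 75 aligned bases, and the commonest smallest amount was 4 counts, taken as 1 sequenced fragment. A floor of 3 fragments corresponded to between 0.148 and 0.194 CPM (the count scaled by library size) and covers counting error only. Differences were tested with edgeR's quasi-likelihood test over the 19005 genes with enough counts, and p-values were adjusted by the Benjamini-Hochberg method over all of these. CPM values here are scaled with trimmed mean of M-values (TMM) factors and serve to compare libraries. Levels of different genes were compared only in the deposited TPM values, which are scaled for transcript length. A gene is called higher or lower at an adjusted p below 0.05, and past the cutoffs when its log2 fold change is also over 1 in size. Muscle markers were present in all 6 libraries, and 7 of the 8 listed myoblast and myotube markers were lower in the DM1 group. Their summed level was between 8503 and 10021 TPM in the normal group and between 4327 and 6485 TPM in the DM1 group, without overlap. In bulk RNA, fewer cells of one kind and less RNA per cell cannot be told apart.

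Of the 46 members, 29 had enough counts to be tested. Among these 29, 7 were upregulated and 4 were downregulated in the DM1 group (24.1% and 13.8%), beside 7.13% upregulated and 8.73% downregulated among all tested genes. The upregulated members were *Adamts16*, *Adamts6*, *Mmp19*, *Adamts2*, *Timp1*, *Adamts14* and *Timp3*, and the downregulated ones were *Mmp3*, *Adamts15*, *Mmp15* and *Timp2*. The 7 upregulated members were 4 without normal library 2 and 3 with limma-trend on either TPM scale, where the upregulated genes among all tested also fell in number, from 1356 to 665 without that library and to 427 and 434 on the TPM scales. Past the cutoffs, *Adamts16* alone was higher (3.45% of the tested members, beside 1.36% of all tested genes). *Mmp3*, whose direction the filter had set, and *Adamts15* were lower past the cutoffs (6.9% of the tested members, beside 0.816%). This count of 2 was 1 in each analysis that left out 1 library except DM1 library 3, with DESeq2, with at least 10 counts in every library, with counts divided by 4, without robust estimation and with the replicate block, and 0 on log2(TPM + 1). Without DM1 library 3 the 2 were not the same genes. *Mmp3* lost its call there, and *Mmp15* passed the cutoffs beside *Adamts15* (*Mmp15* log2 fold change -1.07, adjusted p = 0.00381). At an unadjusted p below 0.05 there were 19 of the 29 (65.5%), beside 30.7% of all tested genes. The 3 libraries of one group lay outside the range of the other in CPM for 18 of the 29 (62.1%), beside 37.2% of all tested genes. The median log2 fold change of the tested members was 0.11, beside 0.02 over all tested genes. *Mmp3* and *Adamts9* entered the test through the normal libraries alone, since no DM1 library reached the filter level for either gene, and such genes had to differ if they were tested. *Mmp3* is in the downregulated counts above, and both genes are in the counts at an unadjusted p below 0.05 and without overlap in CPM. For these 2 genes the filter had set the direction and the lack of overlap, but not the size of the difference. With every gene of at least 1 count tested in edgeR, *Mmp3* kept its call and *Adamts9* did not pass (adjusted p = 0.226).

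**Figure D1:**
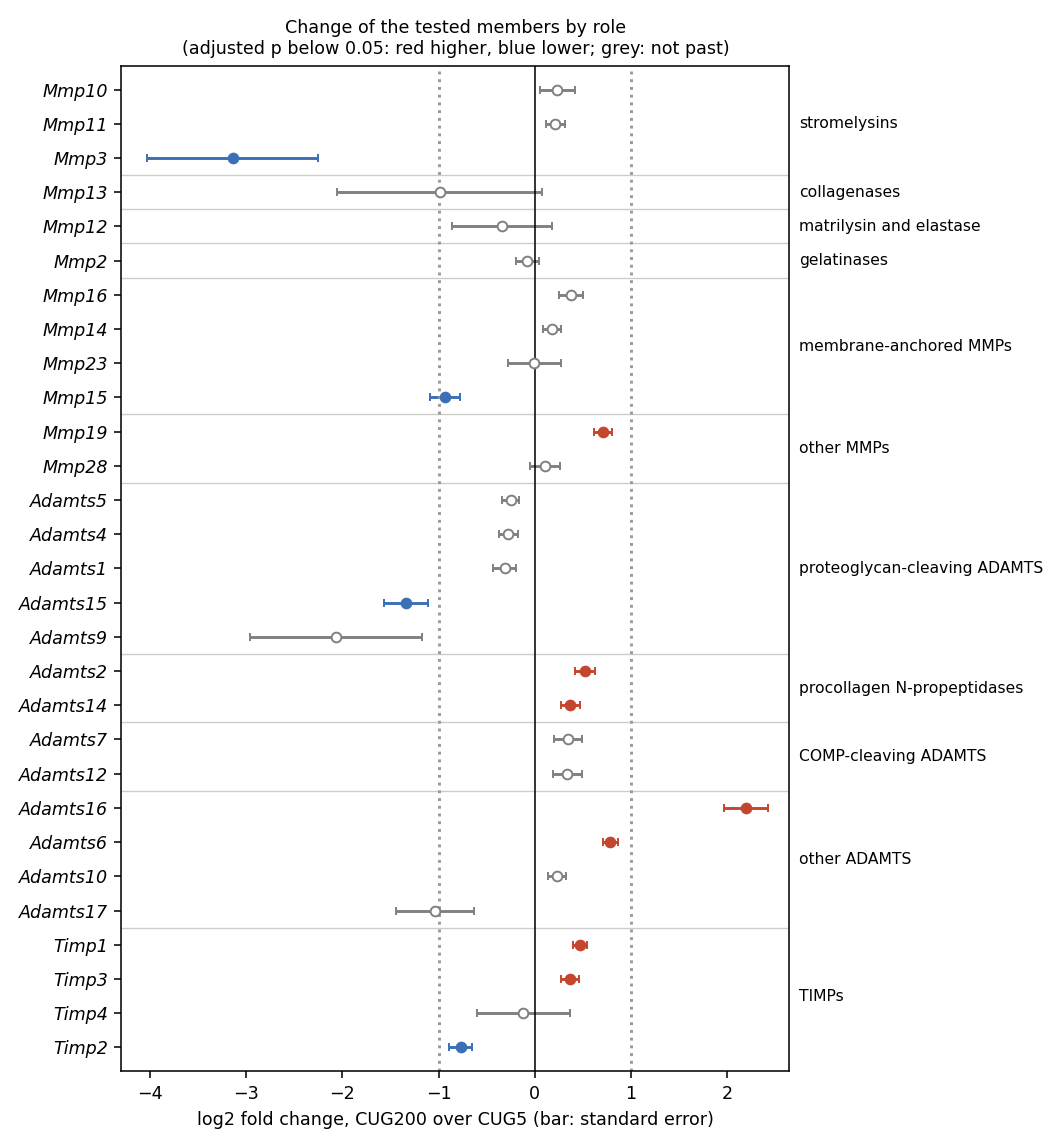
Each point is the log2 fold change of 1 tested gene, CUG200 over CUG5, with its standard error, for the 29 tested members grouped by role. Red points are higher and blue points lower in the DM1 group at an adjusted p below 0.05, open grey points did not pass, and dotted lines mark a log2 fold change of 1. *Adamts16* at 2.20 and *Mmp3* at -3.14 are the extremes, and *Mmp3* has a wide standard error of 0.886.

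By level, the inhibitor genes *Timp1* and *Timp2* led the members in both groups. *Timp1* was the most abundant member in every library, with a mean of 1078 ± 69.3 TPM (SD, n = 3) in the normal group and 1370 ± 104 TPM in the DM1 group. *Timp2* was second by mean, at 352 ± 15.8 and 191 ± 43.2 TPM. Among the proteases the highest levels were those of *Mmp14*, the membrane-type protease that activates pro-MMP2, at 129.8 ± 8.76 and 146 ± 30.9 TPM, and of *Mmp2*, the gelatinase it activates, at 115 ± 19 and 102 ± 22.5 TPM. Within each library *Mmp14* was above *Mmp2*, with ratios of TPM of 1.01, 1.17, and 1.23 in the normal and 1.23, 1.72, and 1.36 in the DM1 libraries, and *Timp2* was above *Mmp14* in 6 of 6 libraries, while the ranges of *Mmp14* and *Mmp2* over the libraries overlapped in both groups. *Mmp2* and *Mmp14* together made up 79.2, 77.5, and 77.3% of the summed *Mmp* TPM in the normal libraries and 75.9, 76, and 77.3% in the DM1 libraries. The *Adamts* genes with the highest levels were *Adamts14* (32 ± 2.91 and 38.3 ± 8.37 TPM), *Adamts7* (29 ± 0.915 and 35.2 ± 8.36 TPM) and *Adamts6* (21.9 ± 0.711 and 34.9 ± 2.9 TPM).

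Summed over each family, the levels overlapped between the groups. The 23 *Mmp* genes summed to 349, 291, and 303 TPM in the normal libraries and 269, 312, and 391 TPM in the DM1 libraries. The 19 *Adamts* genes summed to 142, 134, and 129.9 and 136, 157, and 195 TPM, and the 4 *Timp* genes to 1586, 1463, and 1472 and 1527, 1599, and 1835 TPM. The ratio of summed *Timp* to summed protease TPM was 3.23, 3.44, and 3.4 in the normal libraries and 3.76, 3.41, and 3.13 in the DM1 libraries. These ranges overlapped too, and each family held members called in both directions.

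**Figure D2:**
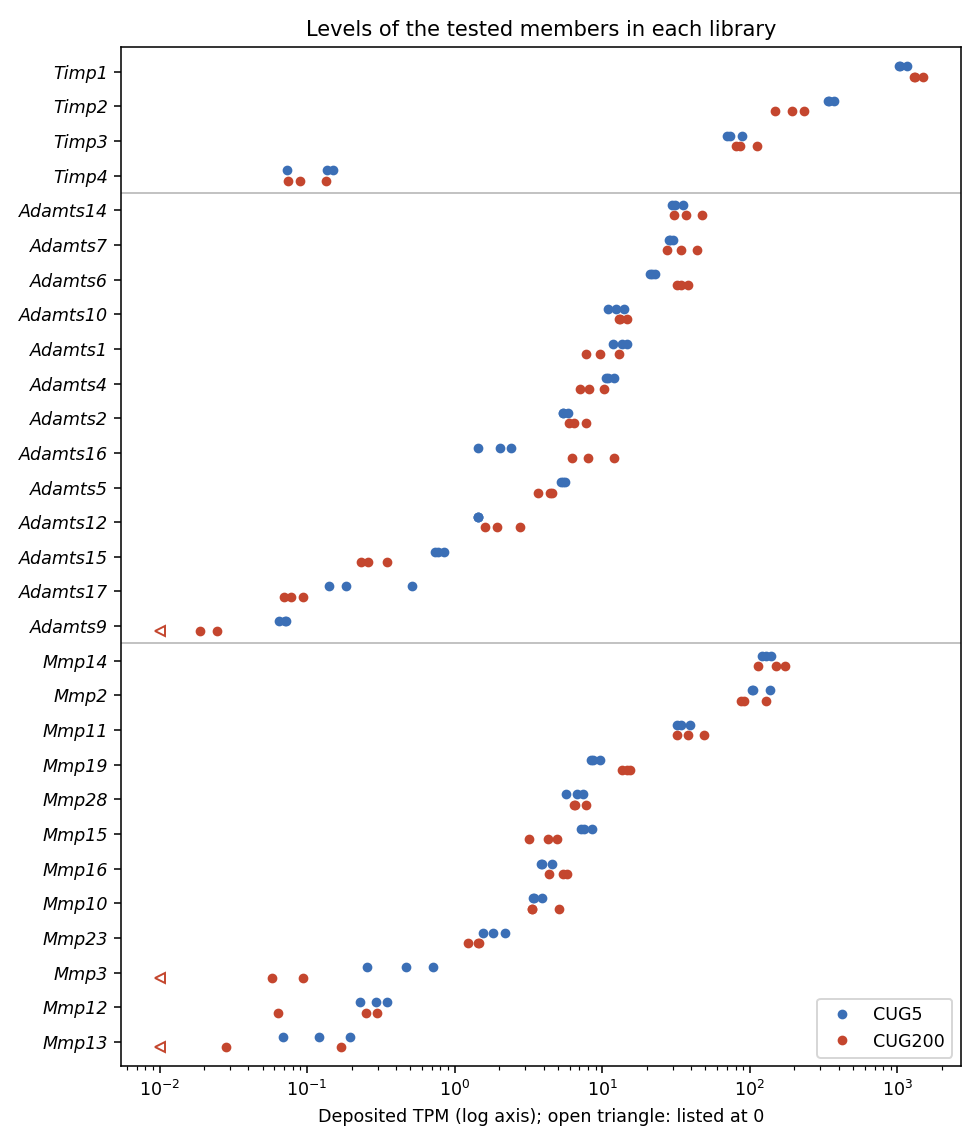
Deposited TPM (log axis) of the 29 tested members in each library, with CUG5 in blue and CUG200 in red, ordered by mean level within the *Timp*, *Adamts* and *Mmp* families. Open triangles mark libraries listed at 0. *Timp1* lies at 1028 TPM or above in all 6 libraries, while *Timp4*, *Adamts9*, *Adamts15*, *Adamts17*, *Mmp3*, *Mmp12* and *Mmp13* stay below 1 TPM.

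Among the inhibitors, *Timp1* and *Timp3* were upregulated and *Timp2* was downregulated. *Timp1* (ENSMUSG00000001131, chrX:20870166-20874735, plus strand, GRCm38), a secreted inhibitor that acts poorly on membrane-type MMPs, measured 558, 549, and 549 CPM in the normal group and 793, 757, and 747 CPM in the DM1 group. All DM1 libraries lay above all normal libraries, and *Timp1* was 1.39-fold higher (log2 fold change 0.47, standard error 0.0764, adjusted p = 0.00646). With limma-trend the *Timp1* difference was 0.35 on log2(TPM + 1) and 0.35 on log2(TPM + 0.1) (adjusted p = 0.0834 and 0.0801), so the call was lost on both scales. *Timp2* (ENSMUSG00000017466, chr11:118301069-118355740, minus strand), the inhibitor that also forms the complex with MMP14 in which pro-MMP2 is activated, measured 705, 776, and 851 CPM in the normal group and 388, 473, and 505 CPM in the DM1 group. The highest DM1 library was below the lowest normal library, and *Timp2* was 1.71-fold lower (log2 fold change -0.77, standard error 0.119, adjusted p = 0.0055). The *Timp2* call held in each of the 17 alternative analyses, with log2 fold changes from -0.90 to -0.65.

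*Timp3* (ENSMUSG00000020044, chr10:86300372-86349506, plus strand), which is bound to the matrix and inhibits several ADAMTS proteases as well as MMPs, measured 232, 202, and 216 CPM in the normal group and 267, 267, and 303 CPM in the DM1 group. The groups did not overlap in CPM, and *Timp3* was 1.29-fold higher (log2 fold change 0.37, standard error 0.093, adjusted p = 0.0312). In the deposited TPM values the groups overlapped, at 88.1, 70.6, and 74 in the normal and 80.2, 85.1, and 111 in the DM1 libraries. With library sizes alone and with limma-trend on both TPM scales the *Timp3* call was lost. The *Timp3* call was lost when single libraries were left out: the adjusted p was 0.0779 without DM1 library 2, and 0.0615, 0.13, and 0.111 without normal libraries 1, 2, and 3. *Timp3* has the gene *Syn3* on its other strand, and the strand setting of the counting is not given in the sources used here. *Timp4*, the fourth inhibitor, was near the detection floor, with normal counts of 19, 31, and 33 and DM1 counts of 22, 36, and 20 (log2 fold change -0.12, standard error 0.487, adjusted p = 0.903). Its groups overlapped.

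The opposite changes of *Timp1* and *Timp2* changed the make-up of the inhibitor RNA. The ratio of *Timp1* to *Timp2* TPM was 3.4, 3.04, and 2.78 in the normal libraries and 8.79, 6.89, and 6.37 in the DM1 libraries, without overlap. *Timp2* made up 21.5, 23.6, and 25.1% of the summed *Timp* TPM in the normal libraries and 9.67, 12, and 12.8% in the DM1 libraries. The share of *Timp3* was between 4.83% and 6.05% over all 6 libraries and overlapped between the groups. The ratio of *Timp2* to *Mmp2* TPM was 2.48, 3.31, and 3.53 in the normal libraries and 1.61, 2.19, and 1.82 in the DM1 libraries, again without overlap. These ratios are descriptions built on genes whose changes were already known, and no test was run on them.

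**Figure D3:**
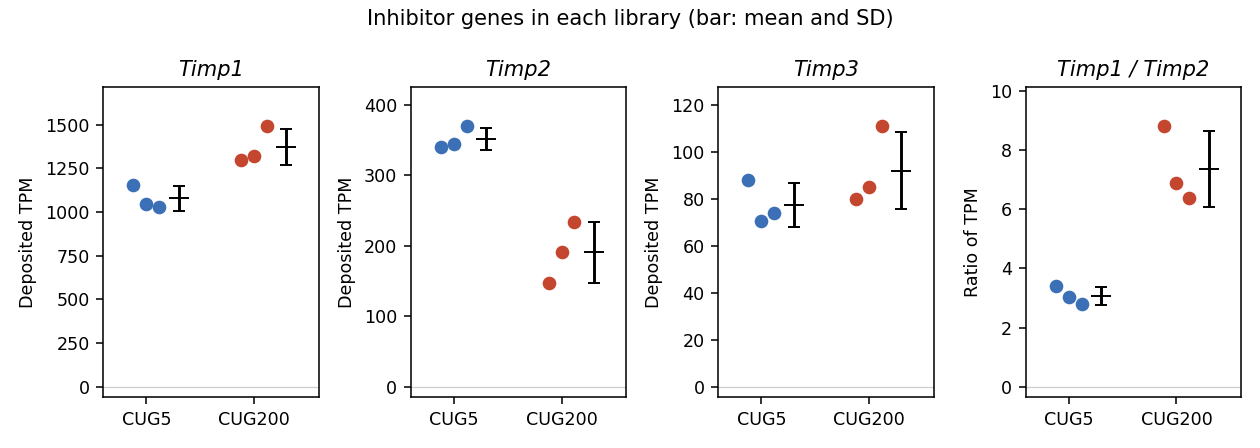
Deposited TPM of *Timp1*, *Timp2* and *Timp3*, and the ratio of *Timp1* to *Timp2* TPM, in each library. Points are the 3 libraries of a group in replicate order, and the bar beside them gives the mean and SD. The DM1 ratios run from 6.37 to 8.79, above the normal range of 2.78 to 3.4.

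Among the MMPs, 12 of 23 were tested, with 1 upregulated, 2 downregulated and 9 not past the threshold. The secreted protease gene *Mmp19* (ENSMUSG00000025355, chr10:128790910-128800824, plus strand) measured 16.4, 15.4, and 15.8 CPM in the normal group and 25, 26.9, and 26 CPM in the DM1 group. The groups did not overlap, and *Mmp19* was 1.64-fold higher (log2 fold change 0.71, standard error 0.0926, adjusted p = 0.00304), a call that held in all 17 alternatives. *Mmp19* shares exonic bases with *Tmem198b* and *Gm47093* on the other strand. *Mmp28* (epilysin), the other tested gene outside the main subgroups, measured 9.65, 13.1, and 13.9 CPM in the normal group and 14.1, 13.3, and 12 CPM in the DM1 group and did not pass (log2 fold change 0.11, standard error 0.155, adjusted p = 0.703).

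Of the membrane-anchored MMPs, 4 of 7 were tested and *Mmp15* alone passed. *Mmp15*, which encodes MT2-MMP (ENSMUSG00000031790, chr8:95352268-95375080, plus strand), measured 16.7, 16.7, and 20.6 CPM in the normal group and 7.88, 9.31, and 11.1 CPM in the DM1 group. Every DM1 library was below every normal library, and *Mmp15* was 1.91-fold lower (log2 fold change -0.93, standard error 0.157, adjusted p = 0.00744), which held in all 17 alternatives. *Mmp14*, its more abundant relative, measured 171, 166, and 173 CPM in the normal group and 174, 192, and 212 CPM in the DM1 group, and did not pass (log2 fold change 0.18, standard error 0.0924, adjusted p = 0.227). *Mmp16*, which encodes MT3-MMP, measured 9.05, 8.34, and 8.44 CPM in the normal group and 9.93, 11.6, and 12.1 CPM in the DM1 group. The groups did not overlap for *Mmp14* or *Mmp16*, but *Mmp16* also missed the threshold (log2 fold change 0.38, standard error 0.124, adjusted p = 0.0713). Without DM1 library 1 the adjusted p of *Mmp16* was 0.0414. *Mmp23* measured 0.916, 1.21, and 0.916 CPM in the normal group and 1.13, 1.08, and 0.812 CPM in the DM1 group, with overlap (fold change 0.998, adjusted p = 0.996).

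The gelatinase gene *Mmp2* measured 232, 191, and 196 CPM in the normal group and 192, 172, and 223 CPM in the DM1 group, and the groups overlapped (log2 fold change -0.08, standard error 0.12, adjusted p = 0.728). The stromelysin 3 gene *Mmp11* measured 42.5, 38.1, and 41.3 CPM in the normal group and 42.1, 47.5, and 52 CPM in the DM1 group and did not pass (log2 fold change 0.22, standard error 0.0993, adjusted p = 0.182). Its groups overlapped because 1 DM1 library fell inside the normal range. *Mmp9*, the second gelatinase, had at most 5 counts in any library, so *Mmp2* was the only gelatinase gene that could be tested.

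A run of 10 *Mmp* genes lies side by side on chromosome 9, between 7272514 and 7699585 on GRCm38, and holds the collagenases *Mmp13*, *Mmp1a*, *Mmp1b* and *Mmp8*, the stromelysins *Mmp3* and *Mmp10*, the elastase *Mmp12*, the matrilysin *Mmp7*, and *Mmp20* and *Mmp27*. Only 4 of these were tested and 5 had no count in any library. *Mmp3* (stromelysin 1, ENSMUSG00000043613, chr9:7445822-7455975, plus strand), which cleaves proteoglycans and other matrix proteins and activates other pro-MMPs, had normal counts of 40, 48, and 21 and DM1 counts of 0, 8, and 4. That is 27 fragments against 3, a 9.07-fold lower level in the DM1 group (95% exact interval 2.79 to 46.7, counting error only; log2 fold change -3.14, standard error 0.886, adjusted p = 0.0443). Since *Mmp3* entered the test through the normal libraries alone, the filter had already set this direction and the lack of overlap between the groups. The fold and its interval are descriptions. The *Mmp3* call was lost in each of the 6 analyses that left out 1 library: without normal libraries 1, 2, and 3 the adjusted p was 0.116, 0.165, and 0.0838, and without DM1 libraries 1, 2, and 3 it was 0.0528, 0.067, and 0.0801. With the replicate number as a block the *Mmp3* call was lost too. No DM1 library held more than 2 fragments of *Mmp3*.

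None of the other 3 tested genes of this run passed the threshold. *Mmp10* (stromelysin 2), at 3.28, 3.62, and 4.21 CPM in the normal group and 4.1, 3.85, and 5.13 CPM in the DM1 group, overlapped between the groups (log2 fold change 0.24, standard error 0.178, adjusted p = 0.421). *Mmp12* had 43, 40, and 56 counts in the normal and 48, 52, and 11 counts in the DM1 libraries (log2 fold change -0.34, standard error 0.523, adjusted p = 0.718), with 1 low DM1 library. *Mmp13* (collagenase 3) had 25, 13, and 9 and 4, 0, and 18 counts (log2 fold change -0.99, standard error 1.07, adjusted p = 0.594), at or near the floor. No test of the difference between these genes was run.

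The 250 bases before the RefSeq start (GRCm38.p6) were read for the 32 members in the promoter table, with 1 start per gene, the one nearest to its start in the files, since the chromosome 9 genes are known for AP-1 sites close to a TATA box. The letters TGANTCA (AP-1) were found on either strand in 7 of the 10 chromosome 9 genes and in 0 of the 22 other members in the table, beside 6.75% of all 32851 promoters. TATAAA was found in 7 of the 10 and in 2 of the 22, beside 12.4%, and 7 of the 10 held both letters, beside 1.21%. The tested genes with TGANTCA were *Mmp3*, *Mmp10* and *Mmp13*, while *Mmp12* held it only before a second start, 2993 bases away. The RefSeq start lay within 100 bases of the start in the files for 28 of the 32, but 101, 329, 3994 and 61068 bases away for *Adamts18*, *Timp2*, *Mmp11* and *Adamts20*. GGAAG, the core of ETS sites, was in 23 of the 32 members, beside 64.1%, and CANNTG (E-box) in 22 of 32, beside 66.2%. The promoters of *Mmp3*, *Mmp10* and *Mmp13* are shown to compare the letters, all on the plus strand. Capitals mark the AP-1, TATA and ETS letters wherever they were found, on either strand, and the last base is the one before the start.
Mmp3 chr9:7445572-7445821: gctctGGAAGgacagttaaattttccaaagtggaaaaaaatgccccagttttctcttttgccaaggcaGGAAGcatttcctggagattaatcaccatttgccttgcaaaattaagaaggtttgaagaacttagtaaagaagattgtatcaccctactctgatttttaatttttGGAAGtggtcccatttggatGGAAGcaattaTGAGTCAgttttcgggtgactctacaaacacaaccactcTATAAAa
Mmp10 chr9:7502092-7502341: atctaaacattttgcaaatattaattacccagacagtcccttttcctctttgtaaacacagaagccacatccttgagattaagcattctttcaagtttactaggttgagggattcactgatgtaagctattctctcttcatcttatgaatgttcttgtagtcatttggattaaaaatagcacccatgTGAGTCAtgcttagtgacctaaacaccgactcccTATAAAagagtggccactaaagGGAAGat
Mmp13 chr9:7272264-7272513: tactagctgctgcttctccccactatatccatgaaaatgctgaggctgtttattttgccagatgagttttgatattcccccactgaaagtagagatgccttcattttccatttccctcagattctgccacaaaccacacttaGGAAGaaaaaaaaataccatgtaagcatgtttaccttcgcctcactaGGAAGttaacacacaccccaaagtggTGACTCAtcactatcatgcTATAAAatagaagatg
In *Mmp3* the AP-1 letters begin 46 bases before the start and TATAAA 7 bases before it. In *Mmp10* these begin 63 and 29 bases before the start, and in *Mmp13* 35 and 16 bases before it. The order was the same in the 3 genes, with TGANTCA ahead of TATAAA. *Mmp3* held GGAAG 4 times, *Mmp13* held it 2 times, and *Mmp10* 1 time. A match of letters does not show that a factor binds there. The promoter of *Timp1*, the most abundant member and an upregulated one, held neither TGANTCA nor TATAAA and is shown beside them with its 3 GGAAG matches in capitals.
Timp1 chrX:20869916-20870165: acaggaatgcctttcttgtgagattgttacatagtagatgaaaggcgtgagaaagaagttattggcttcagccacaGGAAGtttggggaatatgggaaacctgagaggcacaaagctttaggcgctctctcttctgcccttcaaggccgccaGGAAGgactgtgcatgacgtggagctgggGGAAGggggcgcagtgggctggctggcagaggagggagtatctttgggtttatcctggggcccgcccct

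Among the ADAMTS genes, 13 of 19 were tested, with 4 upregulated, 1 downregulated and 8 not past the threshold. Of the 5 tested proteoglycan-cleaving ADAMTS genes *Adamts15* alone passed. *Adamts1*, *Adamts4* and *Adamts5* also had negative log2 fold changes, as did 48.6% of all tested genes, and the sign of *Adamts9* was set by its entry through the normal libraries alone. *Adamts15* (ENSMUSG00000033453, chr9:30899155-30922452, minus strand), whose product cleaves versican and aggrecan, measured 2.74, 2.52, and 2.83 CPM in the normal group and 0.968, 1.35, and 0.887 CPM in the DM1 group. The groups were far apart, and *Adamts15* was 2.52-fold lower (log2 fold change -1.34, standard error 0.228, adjusted p = 0.0078). The *Adamts15* call at an adjusted p below 0.05 held in all 17 alternatives, but on log2(TPM + 1) the log2 fold change was -0.48, short of the cutoff. *Adamts8*, which lies next to *Adamts15* on chromosome 9, had at most 5 counts in any library.

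The aggrecanase genes *Adamts1*, *Adamts4* and *Adamts5* had higher levels than *Adamts15* in TPM and smaller log2 fold changes. *Adamts1* measured 37.9, 33.5, and 37.4 CPM in the normal group and 25.3, 28.6, and 33.8 CPM in the DM1 group, and 1 DM1 library reached the normal range (log2 fold change -0.31, standard error 0.119, adjusted p = 0.114). *Adamts4* measured 29.1, 28.8, and 28.2 CPM in the normal group and 21.7, 23.5, and 26 CPM in the DM1 group, without overlap (log2 fold change -0.27, standard error 0.0982, adjusted p = 0.0946). Without DM1 library 3, *Adamts1* and *Adamts4* passed, with adjusted p = 0.022 and 0.0344. *Adamts5*, the neighbour of *Adamts1* on chromosome 16, measured 33.9, 34.3, and 36.5 CPM in the normal group and 27.9, 31.7, and 28.5 CPM in the DM1 group, also without overlap (log2 fold change -0.25, standard error 0.0903, adjusted p = 0.0977). *Adamts9* had normal counts of 24, 20, and 25 and DM1 counts of 8, 0, and 8, or 17 against 4 fragments. That ratio was 4.28 (95% exact interval 1.4 to 17.5, counting error only), a description of a gene that the filter kept for its normal libraries alone, and *Adamts9* did not pass (log2 fold change -2.07, standard error 0.896, adjusted p = 0.158).

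Both tested procollagen N-propeptidases, which remove the N-terminal propeptide of fibrillar procollagens, were upregulated. *Adamts2* (ENSMUSG00000036545, chr11:50602084-50807573, plus strand) measured 19.4, 17.3, and 20.3 CPM in the normal group and 26.4, 26.4, and 29.1 CPM in the DM1 group. The groups did not overlap, and *Adamts2* was 1.44-fold higher (log2 fold change 0.53, standard error 0.103, adjusted p = 0.0124), with an adjusted p of 0.0558 without normal library 2. *Adamts14* (ENSMUSG00000059901, chr10:61197112-61273438, minus strand) measured 101, 98.1, and 94.5 CPM in the normal group and 112, 126, and 141 CPM in the DM1 group. It was 1.29-fold higher without overlap (log2 fold change 0.37, standard error 0.098, adjusted p = 0.0358), but leaving out DM1 library 2 ended that call (adjusted p = 0.106), as did leaving out normal libraries 1, 2, and 3 (0.0909, 0.112, and 0.134). The *Adamts14* call was also lost with the replicate number as a block (adjusted p = 0.0569). In the deposited TPM values the groups overlapped for *Adamts14*, and on log2(TPM + 1) neither gene passed with limma-trend, with adjusted p = 0.376 for *Adamts2* and 0.416 for *Adamts14*. The third propeptidase gene, *Adamts3*, had at most 21 counts in any library and was not tested.

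*Adamts7* and *Adamts12*, which cleave cartilage oligomeric matrix protein, had log2 fold changes of 0.35 and 0.34. *Adamts7* measured 57.4, 70.8, and 67.3 CPM in the normal group and 67.5, 82, and 99.2 CPM in the DM1 group and *Adamts12* 6.2, 6.03, and 6.78 CPM in the normal group and 6.7, 8.18, and 9.16 CPM in the DM1 group. Both overlapped between the groups and neither passed (adjusted p = 0.143 and 0.166). Without DM1 library 1, *Adamts7* had an adjusted p of 0.0302.

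The largest increase among the members was that of *Adamts16* (ENSMUSG00000049538, chr13:70727802-70841811, minus strand), which encodes a secreted ADAMTS most closely related to ADAMTS18. It measured 6.86, 4.4, and 6.47 CPM in the normal group and 21.3, 25.1, and 35.1 CPM in the DM1 group. The lowest DM1 library was well above the highest normal library, and *Adamts16* was 4.59-fold higher (log2 fold change 2.20, standard error 0.232, adjusted p = 0.00205). The *Adamts16* call past the cutoffs held in all 17 alternatives, with log2 fold changes from 1.69 to 2.36. *Adamts18* had no count in any library.

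*Adamts6* (ENSMUSG00000046169, chr13:104287835-104496695, plus strand), which acts on fibrillin microfibrils together with ADAMTS10, measured 77.8, 85, and 83.9 CPM in the normal group and 144, 143, and 139 CPM in the DM1 group. The 3 libraries of each group were close together, and *Adamts6* was 1.73-fold higher (log2 fold change 0.79, standard error 0.0769, adjusted p = 0.00145), which held in all 17 alternatives. *Adamts10*, its closest relative, measured 20.3, 20.8, and 18.9 CPM in the normal group and 24.5, 23.1, and 22.9 CPM in the DM1 group, without overlap, and did not pass (log2 fold change 0.23, standard error 0.0936, adjusted p = 0.133). *Adamts17* had few counts, at 0.619, 0.521, and 0.945 CPM in the normal group and 0.43, 0.281, and 0.301 CPM in the DM1 group, and did not pass either (log2 fold change -1.04, standard error 0.402, adjusted p = 0.118).

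**Figure D4:**
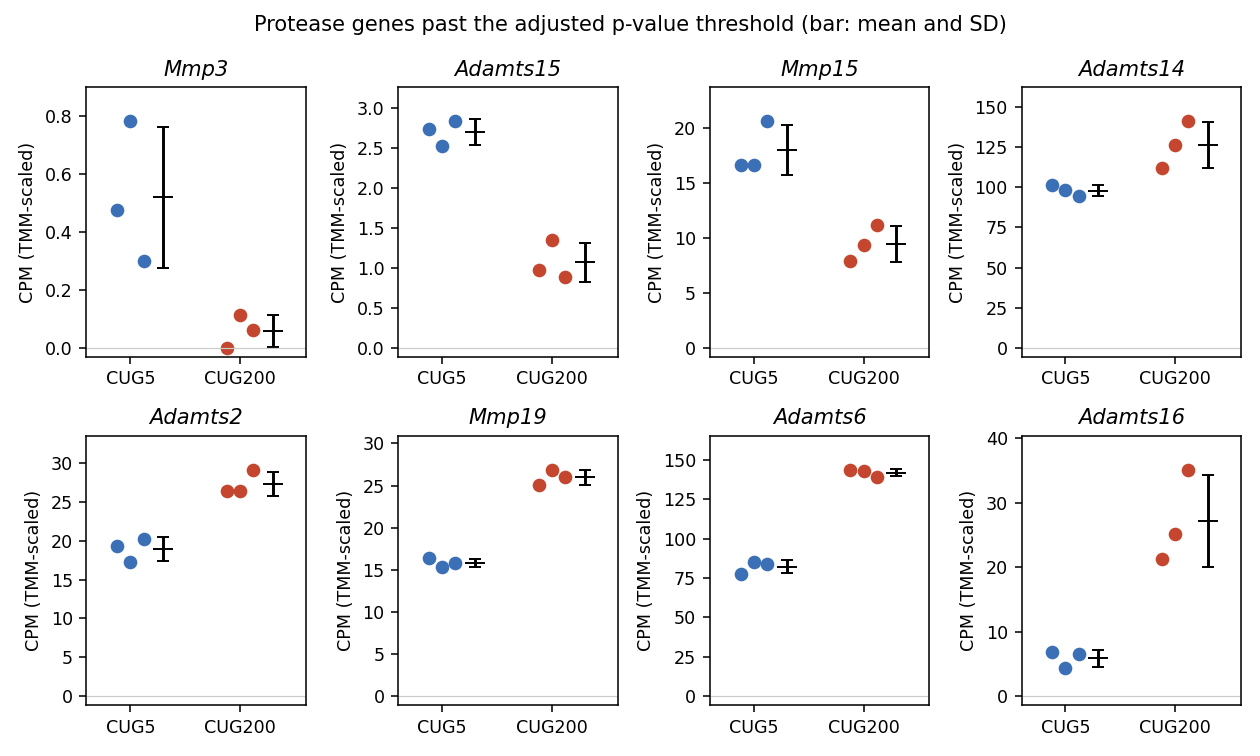
CPM on TMM-scaled library sizes in each library for the 8 protease genes past an adjusted p of 0.05, ordered from the lowest to the highest log2 fold change. Points are libraries in replicate order and the bar gives the mean and SD. The groups do not overlap in any of the 8 panels, which for *Mmp3* the filter had set, and the *Mmp3* axis ends below 1 CPM.

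The remaining 17 members were not tested for want of counts. No count was found in any library for 9 of these: *Mmp1a*, *Mmp1b*, *Mmp7*, *Mmp20*, *Mmp25*, *Mmp27*, *Adamts18*, *Adamts19* and *Adamts20*. Such a count of 0 allows a level of up to 0.194 CPM in the shallowest library. The other 8 had at most 21 counts in a library: *Adamts3* 21, *Mmp24* 17, *Mmp17* 16, *Mmp21* 10, *Adamts8* 5, *Adamts13* 5, *Mmp9* 5 and *Mmp8* 4 counts at most. Differences in these genes were not tested in the reported analysis. Among all 46 members none shared exonic bases with another gene on its own strand, and 13 did so with a gene on the other strand.

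Genes that act with these proteases were read from 6 lists holding 58 genes, of which 40 were tested. Of the 40, 4 were upregulated and 3 were downregulated, beside 7.13% and 8.73% of all tested genes, and their median log2 fold change was -0.05, beside 0.02. The 4 upregulated genes were 1 without DM1 library 2 or any 1 normal library, 2 with library sizes alone and 0 on either TPM scale. The 3 downregulated genes were 0 without normal library 1 or 3, 1 without DM1 library 2 and 5 without DM1 library 3. In the list of activators and the plasminogen system, none of the 7 tested genes passed with edgeR or with DESeq2, with 2 in edgeR at an unadjusted p below 0.05, and their log2 fold changes ran from -0.24 to 0.32. Of the other inhibitors and clearance receptors, 1 of 8 tested genes rose, namely *Bsg*, known as an inducer of MMPs (log2 fold change 0.28, standard error 0.0818, adjusted p = 0.0481). *Bsg* lost its call without any 1 of the libraries except DM1 library 1, with an adjusted p of up to 0.171.

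Among the 6 tested ADAMTS-like genes, 2 fell. *Adamtsl2*, which encodes a microfibril-associated protein, measured 8.86, 7.33, and 9.16 CPM in the normal group and 3.85, 3.12, and 5.29 CPM in the DM1 group and was 2.07-fold lower (log2 fold change -1.05, standard error 0.205, adjusted p = 0.0125), the only related gene past the cutoffs. Its adjusted p was 0.052 without normal library 1 and 0.058 without normal library 3. The log2 fold change of *Adamtsl2* fell short of the cutoff without DM1 libraries 1 and 2 (-0.99 and -0.89) and without normal library 3 (-0.98). With limma-trend on log2(TPM + 1) it was -0.81, also short of the cutoff. *Adamtsl5* was also lower (log2 fold change -0.44, standard error 0.0886, adjusted p = 0.0139), with an adjusted p of 0.0651 without DM1 library 2, 0.0603 without normal library 1 and 0.0643 without normal library 3.

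Of the 9 tested ADAM genes, *Adam12*, a membrane ADAM known from myoblast fusion and regenerating muscle, was upregulated. *Adam12* measured 12.8, 10.8, and 11.1 CPM in the normal group and 17.4, 18.6, and 23.8 CPM in the DM1 group, a 1.72-fold increase without overlap (log2 fold change 0.78, standard error 0.145, adjusted p = 0.0104). On log2(TPM + 1) and log2(TPM + 0.1) *Adam12* lost its call with limma-trend (log2 fold changes 0.49 and 0.61, adjusted p = 0.157 and 0.157). Of the 4 tested astacin proteases and enhancers, *Bmp1*, the procollagen C-propeptidase, was upregulated at 266, 279.7, and 282 CPM in the normal group and 318, 371, and 427 CPM in the DM1 group (log2 fold change 0.43, standard error 0.113, adjusted p = 0.0335). *Bmp1* was called in the same direction as the N-propeptidase genes *Adamts2* and *Adamts14*, and like *Adamts14* it lost its call when DM1 library 2 was left out (adjusted p = 0.104) and when normal libraries 1, 2, and 3 were (0.121, 0.102, and 0.0994). Of the 6 tested lysosomal matrix proteases and cystatin C, the inhibitor gene *Cst3* rose (log2 fold change 0.44, standard error 0.106, adjusted p = 0.0269) and the protease gene *Ctsb* (cathepsin B) fell (log2 fold change -0.35, standard error 0.0808, adjusted p = 0.0235). Both lost the call without DM1 library 2 and without each normal library, with adjusted p of up to 0.11 for *Cst3* and 0.109 for *Ctsb*.

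**Figure D5:**
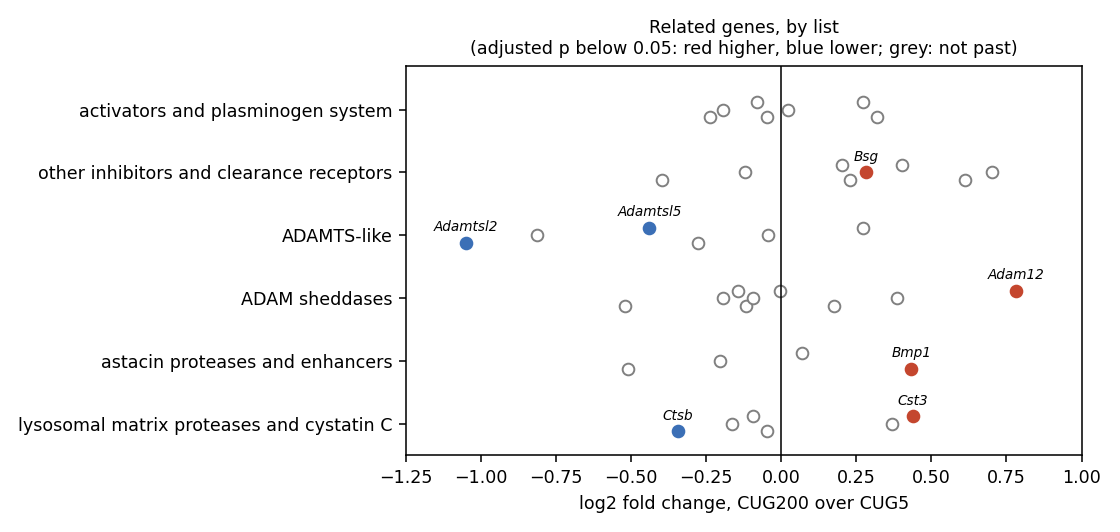
Each point is the log2 fold change, CUG200 over CUG5, of 1 tested related gene in its list (40 genes in 6 lists). Red points are higher and blue points lower in the DM1 group at an adjusted p below 0.05. The named points run from -1.05 for *Adamtsl2* to 0.78 for *Adam12*, and 33 of the 40 did not pass.

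Markers of other cells that make these proteases were read beside the members. The macrophage markers *Ptprc* and *Adgre1* and the neutrophil markers *S100a8*, *S100a9* and *Elane* had no count in any library. The macrophage marker *Itgam* had at most 13 counts and the neutrophil marker *Mpo* at most 4. The macrophage markers *Cd68* and *Csf1r* were tested and did not pass (log2 fold changes 0.08 and 0.38, adjusted p = 0.844 and 0.751). The summed macrophage list, mostly *Cd68*, was between 4.15 and 6.82 TPM over all 6 libraries, overlapping between the groups. Of 4 adipocyte markers, 3 had no count, and the summed list stayed at or under 0.0632 TPM. Of the 4 endothelial markers *Tek* alone was tested and was lower (log2 fold change -0.95, standard error 0.179, adjusted p = 0.0107). The list, mostly *Tek*, summed to between 3.29 and 4.2 TPM in the normal group and between 1.18 and 2.15 TPM in the DM1 group. Of the 4 fibroblast markers, 3 were tested and 2 were higher, *Col1a1* (log2 fold change 1.06, standard error 0.0898, adjusted p = 0.000916) and *Dcn* (log2 fold change 0.45, standard error 0.111, adjusted p = 0.0281), while *Thy1* had at most 4 counts. Their summed level was between 718.9 and 838 TPM in the normal group and between 959 and 1081 TPM in the DM1 group. Of the 3 chondrocyte markers *Acan* had no count, *Col2a1* had at most 19 counts and did not pass (log2 fold change 1.13, standard error 0.937, adjusted p = 0.468), and *Sox9*, which is also made outside cartilage, was lower (log2 fold change -0.40, standard error 0.0975, adjusted p = 0.027). Their summed level, nearly all of it *Sox9*, was between 24.8 and 25.4 TPM in the normal group and between 14.3 and 21.6 TPM in the DM1 group. The muscle and fibroblast lists and the single genes *Tek* and *Sox9* moved with the groups in the same libraries as the 11 called members. Their part in these changes was not tested.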

How the data were processed

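Total RNA from C2C12 cells with 5 or 200 CTG repeats was sequenced on day 4 of differentiation in 3 libraries of each group, which the sample labels name. Per the labels and the study's methods, the authors trimmed reads with Trim Galore, aligned them to GRCm38 with HISAT2 and quantified them with StringTie. They deposited raw counts per gene in 1 table and, for each library, the coverage signal, FPKM and TPM of every gene, both of the latter scaled for length and depth. Versions, read length and strand setting are not given in the sources used here. Coverage served to find the bases per count (99.2% of 14004 single-transcript genes matched within 1 count in every library). All 6 count columns were used.

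The counts were tested with edgeR 4.0.16 in R 4.3.3 (filterByExpr with a minimum count of 10, TMM factors from 0.94 to 1.05, robust quasi-likelihood fit, Benjamini-Hochberg adjustment over 19005 genes), and the cutoffs follow the study's methods. The test was checked on simulated data. Alternatives were DESeq2 1.42.0, limma-trend 3.58.1 on log2(TPM + 1) and log2(TPM + 0.1), other size factors and filters, counts divided by 4, same-strand overlapping genes summed with GENCODE annotation, FPKM sums, a replicate block, and each library left out. With a library left out, 1 group has 2 libraries. Every tested member is named, and from related lists those past the cutoffs and up to 3 per direction with the smallest p. The members and lists were chosen with earlier results of these data known, and 1 listed related gene is not reported here. Promoters came from RefSeq on GRCm38.p6 (32 of 46 members matched by symbol).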

Additional observations from a re-analysis of the deposited data

How the results depend on the processing

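Most results kept their direction and their side of the threshold over the 17 alternative analyses of the counts and TPM values (615 comparisons with the reported value, against 66 that lost a call, 4 that gained one, 13 that changed sign and 25 counts that moved by over 1.5 times). The 615 include genes not called in the reported analysis, which could not lose a call, and also counts and family sums. They therefore do not measure how stable the calls were. *Adamts6*, *Adamts15*, *Adamts16*, *Mmp15*, *Mmp19* and *Timp2* kept their calls in all 17 alternatives. Members lower past the cutoffs numbered 1 in place of 2 with DESeq2, with at least 10 counts in every library, with counts divided by 4 and in edgeR without robust estimation, and 0 on log2(TPM + 1). *Mmp3* had no adjusted p with DESeq2, and the stricter filter and the divided counts left it out of the test. Without robust estimation it was tested and missed the threshold. On log2(TPM + 1) both *Mmp3* and *Adamts15* kept an adjusted p below 0.05 (limma-trend, 0.0447 and 0.03) and missed the fold change cutoff, at -0.48 each. Members higher without a fold change cutoff numbered 3 in place of 7 with limma-trend on log2(TPM + 0.1) and on log2(TPM + 1). Related genes called higher numbered 2 in place of 4 with library sizes alone, and 0 with limma-trend on either TPM scale. The median of all tested genes was 0.02 in the reported analysis and -0.09 on log2(TPM + 0.1). *Adamts14* and *Timp3* also lost their calls with library sizes alone (adjusted p = 0.0947 and 0.081), *Mmp3* did so without robust estimation (0.0506), and *Timp3* and *Timp1* did so on log2(TPM + 1) (0.364 and 0.0834). On both TPM scales *Adamts2*, *Adamts14*, *Timp1*, *Timp3* and the related genes *Adam12*, *Adamtsl5*, *Bmp1*, *Bsg*, *Cst3* and *Ctsb* lost their calls. The cause of the other differences was not tested.

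Leaving out each of the 6 libraries in turn gave 1 to 2 members lower past the cutoffs and 4 to 9 higher and 3 to 5 lower without them. Members higher were 9 without DM1 library 1 and 4 without normal library 2, with *Adamts7* and *Mmp16* added in the first. Related genes numbered 1 to 4 higher and 0 to 5 lower, in place of 4 and 3, with 1 higher without DM1 library 2 or any 1 normal library, 0 lower without normal library 1 or 3, 1 lower without DM1 library 2 and 5 lower without DM1 library 3. The summed *Mmp*, *Adamts* and *Timp* ratios of DM1 over normal were 0.926 to 1.12, 1.08 to 1.3 and 1.04 to 1.14.

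The sign changes were all in genes that did not pass the threshold. Over the left-out libraries the log2 fold change ran from -0.68 to 0.07 for *Mmp12*, from -0.18 to 0.02 for *Mmp2*, from -0.08 to 0.14 for *Mmp23*, from -0.04 to 0.22 for *Mmp28* and from -0.42 to 0.08 for *Timp4*. For *Mmp23* it was also 0.00 with DESeq2 and with at least 10 counts in every library, and 0.02 with counts divided by 4.

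Same-numbered libraries correlated at 0.0675, 0.0222 and 0.0263 in their deviations from the group means, so the numbers were not taken to pair the samples. With the replicate number as a block, *Adamts14* and *Mmp3* lost their calls: 1 member was higher and 1 was lower past the cutoffs, 6 were higher and 3 lower without them, and 4 and 3 related genes were called higher and lower; not every library correlated best with its own number. At 4 counts per fragment, *Mmp3*, *Mmp13*, *Adamts9* and *Timp4* rest on a few fragments per library.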
